A study of Monopterus albus with 3 samples.

Results

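In the gonads of *Monopterus albus*, 553 pairs of neighboring spliced genes were transcribed away from each other with less than 5 kb between their coding starts. They were found among 12216 pairs of adjacent genes that did not overlap, and hold 1106 genes. A gene here is a Cufflinks locus of the transcript annotation that the authors made from gonad RNA, and the transcript with the most coding sequence (CDS) stands for it. Of 63334 loci, the 13305 with at least 2 coding segments and a CDS of at least 300 bp were kept (21.0%) and ordered along each scaffold. A divergent pair is a left locus on the minus strand next to a right locus on the plus strand, and its gap runs from the first coding base of one to the first coding base of the other. A locus can belong to only 1 such pair, and 8.31% of the kept loci did.

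The annotation rests on 3 RNA-seq libraries of *M. albus*, a fish that turns from female to male during its life. There was 1 library each from the ovary of a female, the ovotestis of an intersex fish and the testis of a male, without replicates. The labels name no treatment and no age. Each transcript carries 1 read coverage and none per gonad. Whether the libraries were pooled before assembly is not given in the sources used here. Which gonads a coverage value stands for is therefore not known. The gonads cannot be compared, no error between animals can be given, and a few cells rich in a transcript cannot be told apart from many cells poor in it. Read numbers per library are not known here either. Coverage, the mean depth of reads per base, had a median of 37.2 over all 75480 transcripts. The labels describe cDNA primed with random hexamers and no step that marks the strand, in which case Cufflinks takes strand from splice sites, so only loci with several segments were used for orientation. No reference table matched the Cufflinks identifiers (0 of them, against 24079 RefSeq genes of assembly M_albus_1.0), so pairs are named by scaffold and position, carry no gene names, and the gonads could not be checked against marker genes. Positions are 1-based on the authors' scaffolds. No genome of these scaffolds was used, so no promoter sequence is shown.

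Genes placed head to head leave their transcription start sites on either side of one stretch of DNA. In vertebrates such a stretch can act as a bidirectional promoter, from which RNA polymerase II starts in both directions and which is often rich in CpG dinucleotides. The collagen IV genes COL4A1 and COL4A2 of mammals, whose products assemble into the same basement membrane network, are a textbook example. Other divergent neighbors have separate promoters and are expressed independently of each other. In convergent pairs the 3′ ends face each other, and in tandem pairs the 5′ end of one gene faces the 3′ end of the next, so both lack a shared upstream region. The models used here end at the open reading frame. Their gaps therefore include both 5′ untranslated regions and any intron within them, and are longer than the distance between the transcription start sites.

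Divergent pairs made up 17.3% of the 3191 neighboring pairs with a gap under 5 kb (exact Clopper-Pearson 95% interval 16.0 to 18.7, for counting error only). Convergent pairs were about as frequent, with 574 pairs (18.0%, 16.7 to 19.4), and the other 2064 were tandem. Among neighbors 5 kb or more apart, the divergent share was 21.9% (21.1 to 22.8) and the convergent share 21.5% (20.7 to 22.4). The lower share at short distance goes with the larger share of tandem pairs there, 64.7% under 5 kb against 56.5% at 5 kb or more. Pieces of 1 gene that were assembled as separate loci also count as tandem, and their part in that share was not tested.

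The balance between the 2 opposite-strand orientations changed with distance. At gaps from 0.25 to 0.5 kb, 22 pairs were divergent and 8 convergent. From 0.5 to 1 kb the numbers were 64 and 47, and from 1 to 1.5 kb they were 72 and 46. Of the opposite-strand pairs, divergent ones were thus the more frequent up to 1.5 kb, apart from the shortest gaps. Gaps run between coding ends, so divergent gaps hold 5′ untranslated regions and convergent gaps hold 3′ ones. Their lengths are not known here, so equal gaps need not be equal distances between transcripts. Under 0.25 kb only 2 divergent and 3 convergent pairs were found, beside 128 tandem pairs. From 2 to 3 kb the order was the opposite, with 119 divergent and 144 convergent pairs, and from 4 to 5 kb there were 102 and 132. Per class, the intervals of the divergent and convergent shares overlapped at every gap under 5 kb.

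**Figure D1:**
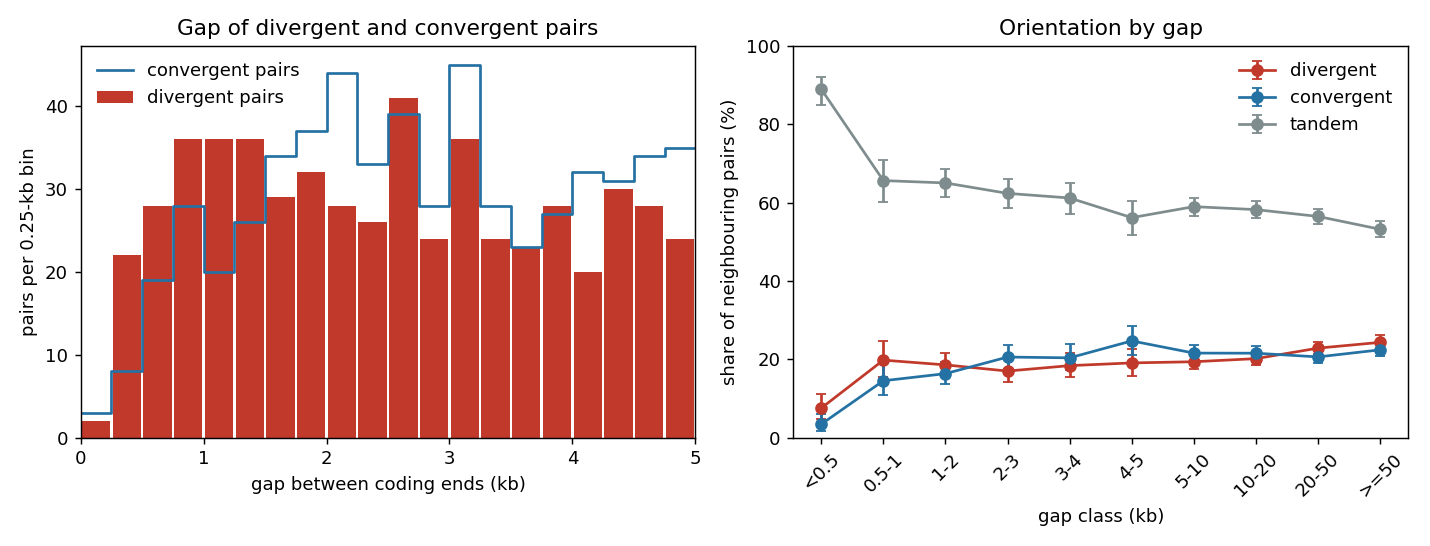
Left, number of divergent (bars) and convergent (line) pairs per 0.25-kb bin of the gap between coding ends. Right, share of divergent, convergent and tandem pairs among neighboring pairs in each gap class, with exact Clopper-Pearson 95% intervals; divergent pairs were 7.57% of neighbors under 0.5 kb and 19.8% from 0.5 to 1 kb.

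The median gap of the divergent pairs was 2523 bp (exact order-statistic 95% interval 2315 to 2637), with quartiles of 1326 and 3638 bp. The median was 2736 bp (2565 to 2949) for convergent pairs and 2144 bp (2046 to 2254) for tandem pairs under the same limit. A gap under 1 kb was found in 88 divergent pairs (15.9%, 13.0 to 19.2), against 58 convergent pairs (10.1%, 7.76 to 12.9). The intervals of these shares do not overlap, but divergent gaps include 5′ and convergent gaps 3′ untranslated regions of unknown length. The limit of 5 kb cuts through a smooth run of gaps. The last pairs inside it, on scaffolds 30, 76 and 34, had gaps of 4978, 4974 and 4973 bp, and the first outside, on scaffolds 19, 12 and 76, had 5020, 5026 and 5042 bp.

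The pair with the smallest gap lay on scaffold 226, where the minus gene ran from 159940 to 162849 and the plus gene from 162868 to 165808. Only 18 bp separated their first coding bases, so any untranslated leader longer than that would reach into the partner on these models. The minus gene had 9 coding exons and a coverage of 202, and the plus gene 5 coding exons and a coverage of 842. The next pair, on scaffold 13, was the most compact of the 5 closest, with genes from 566060 to 567055 and from 567286 to 568706, 230 bp apart. Each of its partners had 3 coding exons, and their coverages were 322 and 353.

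The other 3 of the 5 closest pairs had gaps of 258 to 275 bp. On scaffold 221, genes of 7 and 4 coding exons, from 720956 to 725711 and from 725970 to 729887, had coverages of 258 and 447. On scaffold 70, the partners reached from 963436 to 965832 and from 966097 to 978653. The plus gene there had a first coding exon of 137 bp followed by an intron of 8696 bp, and its coverage of 63.2 was below the 183 of its partner. On scaffold 394, the genes from 846866 to 855450 and from 855726 to 858725 had 15 and 10 coding exons and coverages of 289 and 587. A short gap thus came with coverages within 1 log2 unit (2-fold) in 2 of these 5 pairs and with larger differences in the others.

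Partners were ordinary multi-exon genes. The minus partners had a median CDS of 1254 bp and the plus partners of 1215 bp, both had a median of 8 coding exons, and their median coding spans were 5639 and 5331 bp. The 12199 kept loci outside divergent pairs had a median CDS of 1140 bp, 7 coding exons and a span of 6241 bp. The upper quartile of span showed the greater compactness of the partners more clearly, with 10698 bp in divergent pairs and 14410 bp elsewhere. Partners of convergent pairs had about the same spans as divergent ones (median 5551 bp), so a short span belonged to close neighbors of either kind.

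The first intron between coding segments was longer in the median than those behind it. Introns within the 5′ untranslated region are not in the models, so it need not be the first intron of the gene. The first coding exon of divergent partners had a median of 101.5 bp and the first intron of 580 bp (533 to 619), while the 9002 later introns had a median of 266 bp (256 to 276). First introns that are longer than later ones are common in vertebrate genes, where they often hold regulatory elements. In the other kept loci the medians were 668 bp for the first and 346 bp for later introns. In 173 pairs (31.3%) the gap was shorter than the first intron of at least 1 partner, and in 30 pairs (5.42%) it was shorter than both. The first coding exon was under 10 bp in 44 of the 1106 partners. These counts were not made for other loci or for convergent and tandem pairs, so they cannot be called particular to divergent pairs. The first coding base was in frame in 1104 partners, and 550 pairs had a CDS of whole codons on both sides.

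The sizes of partners were nearly unrelated to each other. The ratio of their CDS lengths was within 2-fold in 55.9% of pairs (51.6 to 60.1), against 53.3% when every minus partner was set beside every plus partner of another pair, that is over all 305256 possible re-pairings. For coding exon numbers the shares were 61.8% (57.7 to 65.9) and 55.2%, and for first introns the median ratio was 1.77 log2 units in partners and 1.78 in re-paired genes. Exon numbers of partners were therefore somewhat more alike than re-paired ones, and first introns were not. This was not particular to divergent pairs. For exon numbers, tandem pairs had 57.5% against 50.8% re-paired, and convergent pairs 49.5% against 51.9%. Spearman's rho across the 553 pairs was 0.061 for CDS length and 0.079 for exon number, which are weak. Both partners had at least 10 coding exons in 111 pairs (20.1%). In 55 pairs (9.95%) a gene of 5 or fewer coding exons stood beside one of at least 15. How often re-paired genes or other close neighbors do so was not computed.

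The largest pairs show both kinds. On scaffold 14, genes from 2708518 to 2734346 and from 2738101 to 2757103 had 49 and 31 coding exons, CDS of 6963 and 4293 bp and a gap of 3754 bp. This was the pair with the longest CDS in sum and the most exons, and its coverages were close, 88.9 and 77.0. On scaffold 87, a gene of 10 coding exons (1286300 to 1291008) stood 2402 bp from one of 54 (1293411 to 1378975) that spanned 85565 bp, with coverages of 381 and 54.2. On scaffold 322, partners with CDS of 2328 and 7461 bp were 2155 bp apart and had coverages of 153 and 79.9. The other pairs with the most exons in sum were on scaffold 307, with 53 (165108 to 307749) beside 22 (308982 to 318461), and on scaffold 57, with 64 coding exons (55629 to 133733) beside 3 (137619 to 142214).

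**Figure D2:**
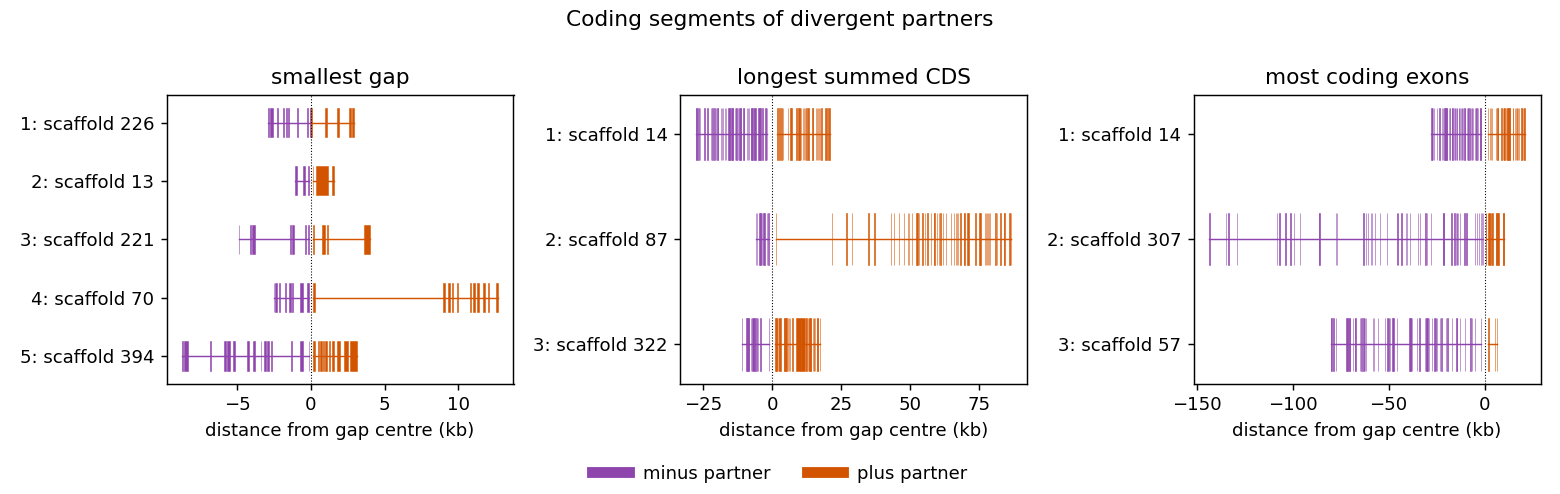
Coding segments (boxes) of the minus and plus partner along the distance in kb from the center of the gap, for the 5 pairs with the smallest gap, the 3 with the longest summed CDS and the 3 with the most coding exons. Rows are ranked within each panel, lines join the segments of 1 model, and the pair on scaffold 14 ranks first in the last 2 panels.

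The gaps of divergent pairs were mostly free of other assembled loci. Loci that the rule left out, mainly short open reading frames in 1 segment, lay inside 55 of the 553 gaps (9.95%, 7.58 to 12.7). This was below convergent pairs, where 155 gaps held one (27.0%, 23.4 to 30.8). Per kb of gap there were 0.0451 loci in divergent pairs (exact Poisson 95% interval 0.0347 to 0.0578), against 0.122 (0.105 to 0.140) in convergent and 0.0835 (0.0754 to 0.0922) in tandem pairs. Of the 63 loci in divergent gaps, 60 had a single segment, so no splice site backs their strand. As annotated, 33 of the 63 lay on the minus and 30 on the plus strand. The 63 loci had a median CDS of 117 bp and a median coverage of 21.8. In gaps under 1 kb there were 0 of them. Of gaps that short, 1 of 58 convergent and 6 of 494 tandem ones held a locus, so these were also mostly free. Convergent gaps face the 3′ ends of both genes, which the models have lost too, and whether the loci there are untranslated pieces was not tested.

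Genes of divergent pairs were covered more deeply than other genes. Their coverage had a median of 162 (146 to 177) and quartiles of 62.1 and 345, against a median of 73.4 (69.7 to 78.1) and quartiles of 12.5 and 244 for the other kept loci. Convergent partners had a median of 128 (112 to 143) and tandem partners of 51.3 (43.8 to 58.0). Both partners reached the median of all kept loci, 82.4, in 289 pairs (52.3%), 1 partner did in 199 (36.0%), and neither in 65 (11.8%). If the 2 sides were independent, these shares would be 49.3%, 41.9% and 8.81%. The plus partner had the higher coverage in 290 pairs and the minus partner in 263, and in 13 pairs both were under 20. Coverage is given for loci that were assembled with a long reading frame, so silent genes are missing from all these numbers.

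Coverage was higher at shorter gaps. The median over partners was 279 in the 24 pairs under 0.5 kb, 205 from 0.5 to 1 kb, 171 from 1 to 2 kb, 152 from 2 to 3 kb, 134 from 3 to 4 kb and 143 from 4 to 5 kb. The less covered partner followed the same course, from a median of 149 under 0.5 kb to 58.9 from 3 to 4 kb and 59.7 from 4 to 5 kb. The more covered partner varied less, with 396 under 0.5 kb and medians between 261 and 322 in the other classes. Pairs with distant starts thus differed from close ones mainly in having a poorly covered partner. Convergent pairs also had their highest medians at short gaps, with 309 in the 11 pairs under 0.5 kb and 84.9 from 4 to 5 kb. Tandem pairs went the other way, with 15.2 under 0.5 kb and 78.5 from 4 to 5 kb.

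The coverage of divergent partners agreed slightly more than that of re-paired genes. On the scale of log2(coverage + 2), the partners of 206 pairs were within 1 unit of each other, or 37.3% (exact Clopper-Pearson 95% interval 33.2 to 41.4). Over all re-pairings of minus and plus partners the share was 30.7%, which is 6.56 percentage points lower and below that interval. Among all 12216 adjacent pairs that do not overlap, in any orientation and at any distance, 31.3% were within 1 unit. The median difference between partners was 1.37 log2 units (1.26 to 1.56), against 1.74 for re-paired genes. Over the 553 pairs, whose partners share a scaffold and the prefix of their Cufflinks identifiers, Spearman's rho was 0.188 and Pearson's r 0.183. Most partners were therefore not close in level, and 117 pairs (21.2%) differed by more than 3 log2 units, or over 8-fold. Such large differences were found in 33.8% of convergent and 18.4% of tandem pairs under 5 kb. Among divergent pairs at 5 kb or more they were found in 37.9%. The difference between partners and re-paired genes was not tested, since loci are not replicates.

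The lead over re-paired genes was smaller under some settings, with wider intervals where fewer pairs were used. These are the intervals of the partner share less the re-paired share, which is given no error of its own. With a minimum CDS of 600 bp it was 4.59 points (-0.247 to 9.58), which no longer leaves the re-paired share below the interval. On the 437 pairs whose scaffold held at least 1 more divergent pair, 34.8% of partners were within 1 unit (30.3 to 39.5). Re-pairing over all of these pairs left the partners 4.75 points ahead (0.284 to 9.42), and re-pairing within the scaffold only 2.91 points (-1.56 to 7.58). These intervals overlap widely, and the part of the scaffold in the agreement was not tested. With re-pairing among pairs of like gap the partners stood 6.07 points ahead (2.02 to 10.2). Within the groups of identifiers that share a Cufflinks prefix, which 521 pairs allow, it was 5.91 points (1.76 to 10.2).

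**Figure D3:**
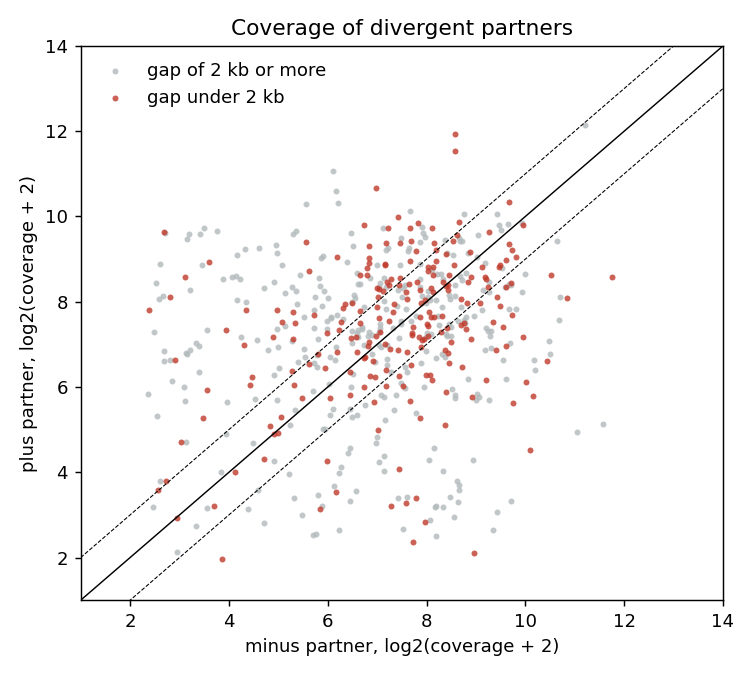
Log2(coverage + 2) of the plus partner against that of the minus partner for the 553 divergent pairs, in red with a gap under 2 kb and in grey with a longer one. The solid line marks equal coverage and the dashed lines a difference of 1 log2 unit; 206 pairs lie between the dashed lines.

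Agreement depended on the gap and was highest below 2 kb. From 1 to 2 kb, 61 of 133 divergent pairs were within 1 unit (45.9%, 37.2 to 54.7), 13.9 points above re-paired genes of that class. From 2 to 3 kb the share was 37.0% (28.3 to 46.3), from 3 to 4 kb 32.4% (23.9 to 42.0), and from 4 to 5 kb 26.5% (18.2 to 36.1), where re-paired genes had 27.7%. The 1979 divergent pairs at 5 kb or more had 24.8% (22.9 to 26.8) and their re-paired genes 24.1%. The share within 1 unit thus fell with distance from 1 to 2 kb on. Re-paired genes also had lower shares at longer gaps, with 32.0% from 1 to 2 kb, 31.3% from 2 to 3 kb and 26.7% from 3 to 4 kb. The lead over them did not fall steadily. It was 5.67 points from 2 to 3 kb, 5.77 from 3 to 4 kb and -1.24 from 4 to 5 kb.

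The closest pairs did not stand further above re-paired genes. From 0.5 to 1 kb, 45.3% of 64 pairs were within 1 unit (32.8 to 58.3), but so were 40.8% of re-paired genes. Under 0.5 kb, 9 of 24 pairs were within 1 unit (37.5%, 18.8 to 59.4), against 36.2% of re-paired genes. The share among re-paired genes was thus highest at gaps from 0.5 to 1 kb. The less covered partner had a median of 130 there and of 149 under 0.5 kb. In every class from 1 kb on, both that share and the median of the less covered partner were lower. Whether the share depends on that level was not tested. With 24 pairs, an excess of the size seen from 1 to 2 kb was not detectable under 0.5 kb.

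A fall with distance was not particular to divergent pairs. Convergent pairs had 25.2% within 1 unit from 3 to 4 kb and 24.2% from 4 to 5 kb. Their re-paired genes had 24.8% and 23.9% there. Tandem pairs had 35.0% from 4 to 5 kb, against 24.0% of re-paired genes. At shorter gaps the order of convergent and divergent pairs was not the same from 1 to 2 kb as under 1 kb. Their intervals overlapped in both classes. Convergent pairs from 1 to 2 kb had 29.1% within 1 unit (21.0 to 38.2), less than divergent pairs of that gap class. Under 1 kb, 51.7% of 58 convergent pairs agreed (38.2 to 65.0), 19.1 points above re-paired genes, against 43.2% of 88 divergent pairs (32.7 to 54.2) and 3.32 points. Over all gaps under 5 kb, convergent partners stood 4.35 points above re-paired genes, with 29.3% within 1 unit (25.6 to 33.2). Tandem pairs agreed far more often, in 50.4% (48.2 to 52.6) over all gaps and in 75.5% (70.1 to 80.4) under 0.5 kb. Tandem loci may be pieces of 1 gene, and reads from 1 transcript would give both pieces a like coverage, which cannot be told apart here.

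**Figure D4:**
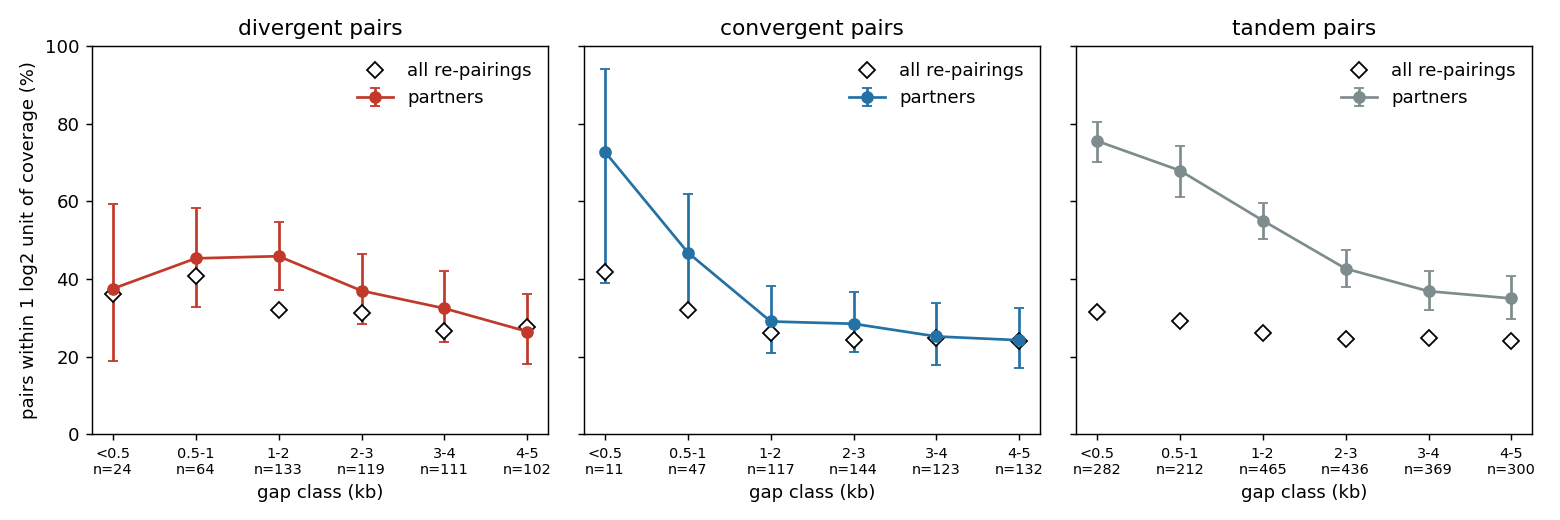
Share of pairs within 1 log2 unit of coverage by gap class, for divergent, convergent and tandem pairs, with exact Clopper-Pearson 95% intervals. Diamonds give the share over all re-pairings of left and right genes of the same orientation and gap class; for divergent pairs the partners lie furthest above the diamond from 1 to 2 kb (45.9% against 32.0%).

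The partners were also compared with their neighbors on the far side from the gap. The minus partner and its left neighbor, where they did not overlap, were within 1 unit in 30.4% of 530 cases (26.5 to 34.5), at a median distance of 11180 bp. For the plus partner and its right neighbor the share was 31.5% of 527 cases (27.6 to 35.7), at 12896 bp. Both are near the 31.3% of all neighbors. With the far neighbor also under 5 kb away, the shares were 34.4% of 151 (26.9 to 42.6) and 45.2% of 135 (36.6 to 54.0). Of the latter neighbors, 88 and 79 lay on the same strand as the partner. Tandem pairs under 5 kb were within 1 unit in 50.4%, and the far neighbors were not split by strand. Whether the divergent partner was closer in coverage than a neighbor at like distance therefore cannot be told from these shares.

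Among the best covered pairs, partners were alike. The 5 pairs with the highest coverage of the less covered partner had both genes at 801 or more and were all within 1 log2 unit. The highest was on scaffold 431, with genes from 93957 to 97569 and from 100649 to 104933, each of 6 coding exons. Their CDS were short, 474 and 447 bp, and their coverages were 2351 and 4516. On scaffold 158 the coverages were 971 and 914 over a gap of 3863 bp, with genes from 747958 to 751460 and from 755324 to 758359. On scaffold 42, genes of 4 and 19 coding exons, from 925112 to 931800 and from 933111 to 946471, had 987 and 893. On scaffold 36 the values were 810 and 1284 (77518 to 83951 and 85508 to 86766), and on scaffold 306 they were 801 and 909 (579336 to 596937 and 599002 to 608402). These pairs were picked for a high coverage on both sides, which limits how far the partners can differ.

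At the other extreme, a deeply covered gene stood beside one of much lower coverage. On scaffold 20, only 820 bp separated a minus gene with a coverage of 4.46 (1877320 to 1887530) from a plus gene with 789 (1888351 to 1897560), the largest difference of all pairs, 6.94 log2 units. Their CDS were nearly equal, 627 and 633 bp. On scaffold 98 the coverages were 4.54 and 776 over a gap of 3927 bp that held another locus (1677510 to 1680853 and 1684781 to 1689987). The minus gene was the high one in the next 3. On scaffold 5 the minus gene had 498 and the plus gene 2.29 (822894 to 828523 and 829977 to 833934, gap 1453 bp). On scaffold 44 the values were 645 and 4.25 (1135565 to 1140344 and 1143805 to 1144275), and on scaffold 96 they were 3023 and 33.2 (2753206 to 2755073 and 2757295 to 2766016). These pairs were picked for their difference, which is a description only.

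Divergent pairs were spread over 238 of the 992 scaffolds with kept loci. Many of the 992 hold a single kept locus and so cannot hold a pair. A single pair was found on 116 scaffolds, and at least 5 pairs on 25. Of the 73 scaffolds with at least 50 kept loci, 3 had none. On scaffold 50 the pairs held 20.5% of the kept loci (8 pairs, 78 loci) and on scaffold 37 19.6% (5 pairs, 51 loci). Successive pairs on a scaffold were a median of 343582 bp apart, from the end of one gap to the start of the next. In 21 cases the pairs adjoined, with the plus gene of one next to the minus gene of the following pair. The tightest such group lay on scaffold 59, where 2 gaps, from 2222353 to 2222768 and from 2226689 to 2229905, were 3919 bp apart. Its 4 genes had coverages of 112, 630, 130 and 155 from left to right. On scaffold 514, 4 genes around gaps from 110908 to 111376 and from 117315 to 119169 had coverages of 391, 760, 380 and 3905.

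Scaffold 7 carried the most divergent pairs, 13, among 179 kept loci. Their gaps ran from 358 to 4572 bp and 4 of the pairs were within 1 log2 unit. The closest pair, from 5075088 to 5085153 and from 5085512 to 5089537, had coverages of 683 and 276. The most unequal one, from 1672042 to 1679093 and from 1681298 to 1694019, had 1445 and 107. In 2 pairs both partners were under 20, with 3.95 and 9.91 at a gap of 890 bp (251683 to 252495 and 253386 to 255439) and 4.10 and 11.8 at a gap of 2569 bp (497041 to 497563 and 500133 to 503285). The pair between 793536 and 807160 had genes of 21 and 10 coding exons and coverages of 70.9 and 112.

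The neighborhood of the pairs was mixed. The next kept gene lay on the strand of its partner on both sides in 148 pairs (26.8%), so that runs of genes left the gap in both directions. It lay on the opposite strand on both sides in 97 (17.5%) and on the same strand on 1 side in 268 (48.5%). In the remaining 40 pairs a scaffold end came first. Far neighbors that did not overlap lay on the partner's strand in 285 of 530 cases on the left and 292 of 527 on the right. Among all adjacent pairs that did not overlap, 58.7% were tandem. How often such runs occur elsewhere was not computed. At least 1 partner had several assembled transcripts in 383 pairs (69.3%). In 63 pairs (11.4%) another transcript reached further toward the partner than the longest one, and in 14 (2.53%) the outermost coding ends of the partners overlapped. These transcript counts were not made for pairs of other orientations. Partners had 1.60 transcripts on average and other kept loci 1.68.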

How the data were processed

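The authors mapped RNA-seq reads from poly(A) RNA of ovary, ovotestis and testis to their scaffolds and assembled transcripts. The submitters' processing notes name Bowtie 0.12.7, TopHat 1.3.3 and Cufflinks 1.1.0. The study's methods give a later Cufflinks version, and which of them made the deposited models is not known here. The study's methods name a hidden Markov model for verifying ORFs, and exons in the deposited file end with the ORF. Each deposited transcript has coordinates, an FPKM and a coverage (mean read depth per base, not scaled to library size) with 1 value and none per gonad. Whether the libraries were pooled is not stated. Coverage divided by FPKM is not the same in all 171 identifier prefixes. Coverage was used, and the medians across scaffolds rest on it. Whether coverage is comparable between prefixes was not tested. There are 0 unused per-sample columns.

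Per locus the transcript with the largest summed exon length was taken, and its exon ends set the gap. In 4 pairs the transcript line was longer than its exons. In 3 pairs a longer locus also spans the gap. The pseudocount was 2. Re-paired values average every combination of a left gene with the right gene of another pair, with no random draws. Intervals are exact at 95%, treat pairs as independent and cover counting error only. For the points above re-pairing, the interval of the partner share was shifted by the re-paired share. The re-paired share was taken as fixed, so these are not full intervals of a difference. No p-value was computed, as 1 library per gonad gives no replicates. The pair rule and the re-pairing average were checked on made-up annotations with known answers. Members, lists and settings were chosen with earlier results of these data known. Pairs described by position follow a fixed rule (smallest gap, highest coverage of the weaker partner, largest difference, longest CDS, most exons, the limit, and the scaffold with most pairs), except the adjoining pairs of scaffolds 59 and 514 and the shares of scaffolds 50 and 37, which were picked on their values. Without gene names no gene list or cell type marker could be applied. Computed with Python 3.11.15, numpy 2.4.6, scipy 1.17.1 and matplotlib 3.10.9.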

Additional observations from a re-analysis of the deposited data

How the results depend on the processing

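The 6 results (number, share and median gap of divergent pairs, median difference, share within 1 log2 unit and points above re-pairing) were recomputed under 17 other settings and 6 more chosen after seeing the data, each setting for the results it can touch. Settings of pseudocount, unit or re-pairing were run for coverage agreement alone. Of the values so obtained, 86 stayed and 16 moved. Only the points above re-pairing could change sign, and they did so under none of the settings. The points above re-pairing ran from 2.91 to 10.1 (gap under 2 kb). Their interval included 0 under 3 settings, with re-pairing within scaffolds (2.91, -1.56 to 7.58), a minimum CDS of 600 bp (4.59, -0.247 to 9.58) and a gap under 1 kb (3.32, -7.21 to 14.3). With the most covered transcript as representative the share within 1 unit rose to 41.7%, and with a coverage of at least 10 on both sides to 42.2% with a median difference of 1.25. A gap under 1 kb gave 88 pairs, 13.8% of neighbors, a median gap of 695 bp, 43.2% within 1 unit, a median difference of 1.16 and 3.32 points. A gap under 2 kb gave 221 pairs, 1123 bp, 44.8%, 1.15 and 10.1 points, and under 10 kb 905 pairs and 4003 bp, where number and median gap move by construction. Gaps without any other locus gave 18.8% of neighbors and 2315 bp. The other recomputed values stayed within the main interval or, for the number, within 1.5 times. FPKM gave 8.50 points, and 5.32 with re-pairing inside identifier prefixes. No paired analysis was possible because each gonad has 1 library and the values are not per library, and for the same reason no library could be left out. Depth per library is not known, untranslated exons are missing, and genes too weak to be assembled are absent.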

Other observations

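Another 97 adjacent pairs of kept loci overlapped and were left out of the comparisons above. Of these, 29 had a left gene on the minus and a right gene on the plus strand, 26 were of the convergent kind and 42 lay on the same strand. Their coverage was not compared here. Over all annotated loci, 162 carried transcripts on both strands. The representative transcript set the strand of such a locus.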
